A study of Mus musculus with 4 samples.

Results

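The 9 genes described here carry the growth factor signals by which blood vessels form: *Kdr*, *Flt1* and *Flt4*, which encode the tyrosine kinase receptors for vascular endothelial growth factors (VEGFs), *Tie1* and *Tek*, the receptor pair of the angiopoietin pathway, *Nrp1* and *Nrp2*, the neuropilin co-receptors, *Plxnd1*, a plexin that receives semaphorin signals, and *Vegfa*, the main VEGF ligand. They were taken by gene symbol from the deposited count matrices of the caudal part of mouse embryos at embryonic day (E) 8.5, and all 9 were found among 31055 listed genes. Single-cell RNA-seq was carried out on 4 libraries, 2 from a pool of 5 wild-type (WT) embryos and 2 from a pool of 3 embryos null for *Grhl3*, which encodes a Grainyhead-like transcription factor of the surface ectoderm that is needed for closure of the neural tube. The 2 libraries of a genotype were run on cells of the same pool, so every p-value below measures the spread between reactions and holds none of the spread between embryos.

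VEGF-A made by surrounding tissue binds KDR on endothelial cells and their progenitors, where KDR carries most of the signal for survival, migration and division, while FLT1 binds the same ligand tightly and largely acts as a decoy. FLT4 is best known from lymphatic vessels, but is also made by the early blood vessels of the embryo. Mesodermal progenitors switch on *Kdr* before they commit to the endothelial or blood lineages. Neuropilins serve both VEGFs and class 3 semaphorins and are made by neural and mesenchymal tissue as well as by vessels, and *Vegfa* is made by many epithelia and by hypoxic cells.

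After filtering, 5459 and 5116 WT cells and 4842 and 4781 *Grhl3*-null cells remained, with medians of 33391 to 38070 unique molecular identifiers (UMIs, each tagging 1 captured RNA molecule) per cell. *Grhl3* itself stood at 3.87 and 3.64 counts per 1000000 UMIs of the library (CPM) in the WT libraries and at 0.0531 and 0.0667 CPM in the null libraries. Clustering gave 15 clusters, of which 14 were named after cell types from their markers. A cluster of 697 cells (152 and 156 in the WT libraries, 192 and 197 in the null libraries) carried 12 of the 13 endothelial and haematoendothelial markers that are not among the 9 genes, and is called endothelium-like here. All 10 textbook endothelial genes checked were detected in it, as they were in several other classes. Their summed level in it was 1453 and 1542 CPM in WT and 1622 and 1422 CPM in null. The next highest class, erythroid-like, had 235.9 and 237.7 CPM in WT and 278 and 247.5 CPM in null. All 9 genes took part in the clustering, so that levels between clusters are given as a description with no test. The pre-somitic mesoderm-like class held 1006 WT cells and 7 null cells and was not compared between genotypes. The pools also differed in sex. Cells called male and female numbered 1259 and 3488 in WT library 1, 1206 and 3263 in WT library 2, 2278 and 1821 in null library 1, and 2300 and 1700 in null library 2. Male and female cells come from different embryos of a pool, so some of the genotype differences are also given within each sex. How many embryos of each sex a pool held is not given in the sources used here.

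The promoters of 4 of the genes are shown because their levels, described below, follow opposite patterns: *Kdr*, *Flt1* and *Tek* were highest in the endothelium-like class, and *Vegfa* was not. Sequences are from RefSeq on build GRCm38.p6, read 5′ to 3′ on the gene's strand, for up to 250 bases before the annotated start (247 for *Kdr*), and capitals mark the letters GGAA or, for the other strand, TTCC, the core bound by ETS factors.
*Kdr*, chr5:75978459-75978705, minus strand: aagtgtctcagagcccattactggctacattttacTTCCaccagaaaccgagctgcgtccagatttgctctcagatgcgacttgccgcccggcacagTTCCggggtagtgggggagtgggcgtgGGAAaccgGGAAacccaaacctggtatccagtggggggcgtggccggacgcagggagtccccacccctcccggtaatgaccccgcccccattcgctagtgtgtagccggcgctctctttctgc
*Flt1*, chr5:147726012-147726261, minus strand: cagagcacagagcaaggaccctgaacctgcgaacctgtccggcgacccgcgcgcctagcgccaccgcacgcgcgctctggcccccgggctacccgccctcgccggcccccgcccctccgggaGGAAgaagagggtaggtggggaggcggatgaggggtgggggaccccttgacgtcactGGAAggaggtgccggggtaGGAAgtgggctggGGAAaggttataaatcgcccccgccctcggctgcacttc
*Tek*, chr4:94739039-94739288, plus strand: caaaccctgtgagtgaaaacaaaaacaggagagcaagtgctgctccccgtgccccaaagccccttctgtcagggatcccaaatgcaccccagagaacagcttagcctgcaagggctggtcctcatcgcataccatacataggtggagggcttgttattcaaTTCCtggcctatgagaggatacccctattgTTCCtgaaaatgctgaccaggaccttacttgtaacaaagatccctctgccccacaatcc
*Vegfa*, chr17:46032378-46032627, minus strand: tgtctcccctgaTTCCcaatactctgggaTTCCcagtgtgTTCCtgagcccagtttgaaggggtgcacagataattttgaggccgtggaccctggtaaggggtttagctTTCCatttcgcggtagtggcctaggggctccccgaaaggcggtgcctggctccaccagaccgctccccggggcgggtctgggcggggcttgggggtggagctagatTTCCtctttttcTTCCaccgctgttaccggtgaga
GGAA or TTCC occurred 4 times in the *Kdr* window of 250 bases, 4 times in that of *Flt1*, 2 times in that of *Tek* and 6 times in that of *Vegfa*. Among the genes not printed, *Tie1* had the most matches with 7 and *Nrp2* the fewest with 1. The letters are common: 93.45% of the 32851 RefSeq windows of the same length held at least 1 match, with a median of 3. The letters ACGTG (both strands), 1 form of the hypoxia response core, were found in none of the 9 genes' main windows. They occurred 1 time in the window at a second, internal RefSeq start of *Vegfa*, and 16.57% of all windows held them. Other forms of this core were not searched. CG dinucleotides numbered 23 before *Flt1*, 16 before *Kdr*, 11 before *Vegfa* and 2 before *Tek*, against a median of 6. A match describes the letters only and is not a binding site.

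The VEGF receptors were concentrated in the endothelium-like class. *Kdr* (chromosome 5, 75932827 to 75978458, minus strand, GRCm38), the principal signalling receptor, was at 438 and 429 CPM there in the WT libraries. The next class was Mesenchyme 1, a cluster named after a list of mesenchymal markers, at 65.4 and 75.6 CPM, followed by Mesenchyme 2 at 13.7 and 16.4 CPM. These 3 classes did not overlap over the WT libraries, and the endothelium-like mean was 6.15-fold above the next. Mesenchyme 1 is a large class, so it held 37.0% of the WT *Kdr* UMIs against 52.7% in the endothelium-like class. *Flt1* (chromosome 5, 147561604 to 147726011, minus strand), the decoy receptor, was at 234 and 264 CPM in the WT endothelium-like class. It stood 36.7-fold above the surface ectoderm-like class, which was next at 7.35 and 6.22 CPM and overlapped the gut-like class at 3.72 and 6.33 CPM. *Flt4* (chromosome 11, 49609263 to 49652739, plus strand) was at 82.6 and 85.7 CPM in the WT endothelium-like class, which held 84.1% of its WT UMIs. Its next class, erythroid-like, had 3.91 and 0 CPM on 12 UMIs.

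The angiopoietin receptors were likewise found mainly in the endothelium-like class. *Tie1* (chromosome 4, 118471191 to 118490061, minus strand) was at 57.3 and 60.2 CPM in the WT endothelium-like class, which held 92.0% of its WT UMIs. The next class, gut-like, had 0.207 and 0.694 CPM and overlapped with the erythroid-like class after it. *Tek* (chromosome 4, 94739289 to 94874976, plus strand), the angiopoietin receptor that signals, was at 69.6 and 82.3 CPM. It was also found at a lower level in the surface ectoderm-like class (5.53 and 3.63 CPM) and in Mesenchyme 2 (3.88 and 3.44 CPM), which overlapped. The ratio of the endothelium-like mean to that of the next class was 130.4 for *Tie1* and 16.6 for *Tek*.

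The co-receptors were spread more widely. *Nrp1* (chromosome 8, 128358604 to 128503363, plus strand) was highest in the endothelium-like class at 123 and 127 CPM in WT, but this class held 13.9% of its WT UMIs. Intermediate mesoderm-like cells (83.5 and 90.9 CPM), Mesenchyme 1 (77.7 and 74.5 CPM) and Mesenchyme 2 (53.9 and 52.8 CPM) came next, in an order without overlap between the WT libraries. *Nrp2* (chromosome 1, 62703285 to 62818695, plus strand) had no such peak. The surface ectoderm-like class stood at 73.6 and 84.5 CPM, the endothelium-like class at 75.1 and 78.4 CPM and Mesenchyme 2 at 64.2 and 76.6 CPM, and neighbours in this order overlapped. *Plxnd1* (chromosome 6, 115954811 to 115995005, minus strand) was at 169 and 177 CPM in the endothelium-like class and had a second site, the erythroid-like class, at 39.8 and 43.3 CPM in WT and 43.8 and 36.5 CPM in null. When each cell was thinned to 7500 UMIs, 27.1% of 118 WT erythroid-like cells had a *Plxnd1* UMI (95% Clopper-Pearson interval 19.4 to 36.1%), against 1.13% of 973 neuroepithelium-like cells (0.566 to 2.01%). As sequenced, with medians of 37583 and 35386 UMIs, these shares were 74.6% and 5.76%.

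The ligand was highest elsewhere. *Vegfa* (chromosome 17, 46016993 to 46032369, minus strand) was highest in the gut-like class at 49.1 and 42.1 CPM in WT, followed by Mesenchyme 2 at 33.7 and 33.4 CPM and Mesenchyme 1 at 23.3 and 24.1 CPM. These 3 classes did not overlap. The endothelium-like class had 13.9 and 13.7 CPM, and 5.84% of its 308 WT cells had a *Vegfa* UMI at 7500 UMIs per cell (3.50 to 9.08%), compared with 27.3% of 521 gut-like cells (23.5 to 31.3%). As sequenced these shares were 33.4% and 71.6%, at medians of 36873.5 and 42333 UMIs.

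**Figure D1:**
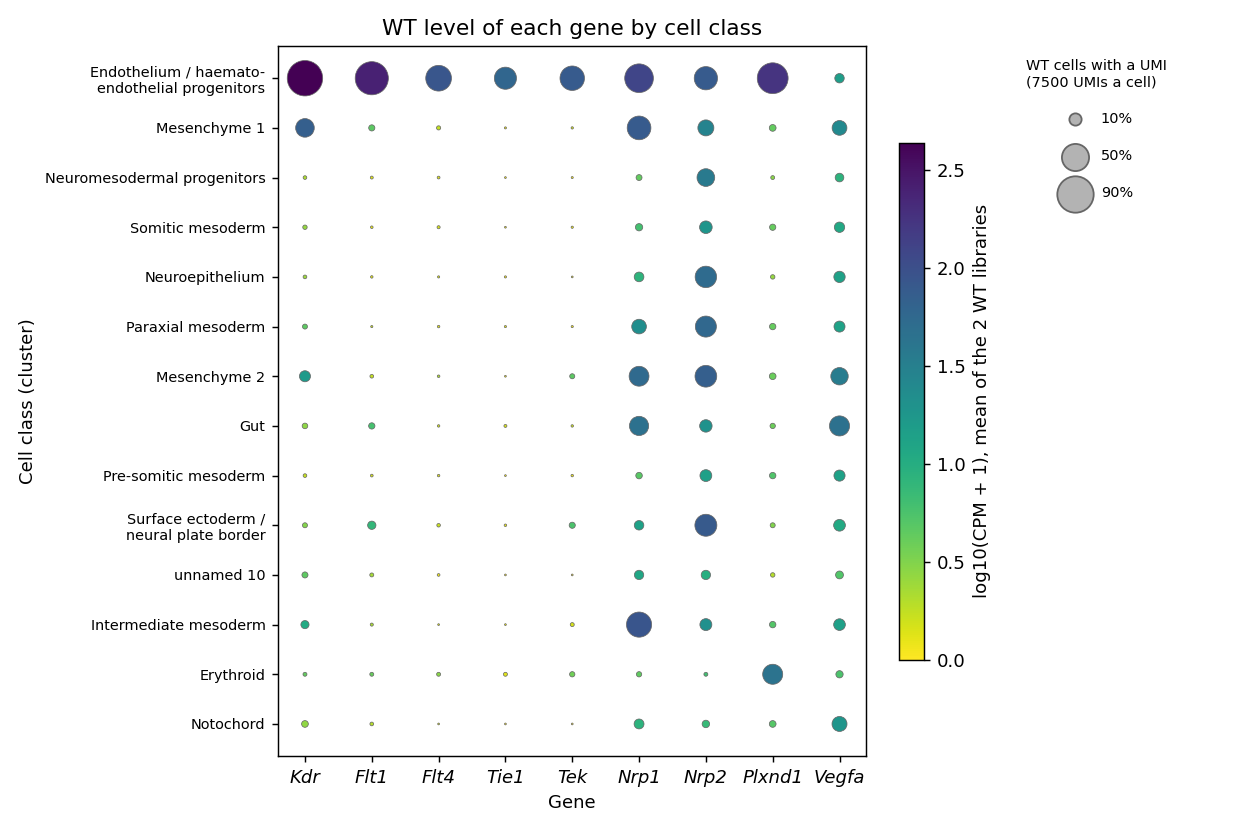
Level of the 9 genes (columns) in each WT cell class (rows). Colour gives the mean level of the 2 WT libraries on a log scale and dot area the share of WT cells with at least 1 UMI after thinning to 7500 UMIs a cell. *Kdr*, *Flt1*, *Flt4*, *Tie1*, *Tek*, *Nrp1* and *Plxnd1* are highest in the endothelium-like row, *Nrp2* is spread over many rows and *Vegfa* is highest in the gut-like row.

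Clusters made without the 9 genes and the listed pathway genes left the same 7 genes highest in the endothelium-like class. *Nrp2* was then also highest there, at a WT mean of 78.2 CPM, and *Vegfa* was highest in a cluster led by *Tbx4*, a T-box gene of the hindlimb and allantois, at a WT mean of 48.8 CPM. This cluster came largely from Mesenchyme 1 (408 of its 428 cells) and held 107 WT and 321 null cells. *Kdr* stood at 128 and 114 CPM in WT and 128 and 181 CPM in null in it, and at 51.0 and 65.4 CPM in WT and 76.1 and 74.7 CPM in null in the cluster that took most other Mesenchyme 1 cells.

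Over the 15 clusters (mean of the 4 libraries, log2(CPM + 5)), the profiles of *Flt4* and *Tie1* were nearly the same, with Pearson's r = 0.997, and *Flt1* and *Tek* had r of 0.950 to 0.972 with them and with each other. *Kdr* had r of 0.798 to 0.830 with these 4 receptors and 0.762 with *Nrp1*, while *Vegfa* had r = 0.0051 with *Flt4* and 0.626 with *Nrp1*. These values describe 15 clusters of the same libraries, and for *Flt1*, *Flt4*, *Tie1* and *Tek* they rest on a single high cluster. Of 8013 genes ranked, those most like *Kdr* were *Acvrl1* (r = 0.947), which encodes an endothelial receptor of the TGF-β family, *Lama4* (0.919), a laminin chain of vascular basement membrane, and *Etv2* (0.917), the ETS factor that starts the haematoendothelial programme. For *Flt1* they were *Myzap*, *Cd34* and *Thsd1* (0.980 to 0.987), for *Flt4* *Lyve1*, *Sox7* and *Dll4* (0.997 to 0.998), for *Tek* *Arhgdib*, *Flt4* and *Lyve1* (0.964 to 0.981), and for *Tie1* *Gja5*, *Abi3* and *D030007L05Rik* (0.9995 to 0.9998). *Plxnd1* was most like *Tal1* (0.956) and *Itga2b* (0.955), genes of early blood progenitors, and *Stat3* (0.938). *Nrp1* was most like *Fzd4*, *Mknk2* and *Camk2d* (0.890 to 0.896), *Nrp2* like *Tmem108*, *Col18a1* and *Akap12* (0.830 to 0.861) and *Vegfa* like *Ly75* (0.891) and *Ikbip* (0.848).

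Single endothelium-like cells mostly carried several of the 5 tyrosine kinase receptors together. As sequenced, 54.9% of the 308 WT cells had a UMI of all 5 and 91.9% of at least 3, and in null 52.4% of 389 cells had all 5 and 87.9% at least 3. At 7500 UMIs per cell, 61.7% of WT cells and 57.3% of null cells had at least 3. *Kdr* was found at that depth in 85.4% of WT cells (80.9 to 89.1%) and 91.5% of null cells (88.3 to 94.1%), beside 0.719% and 0.874% of neuroepithelium-like cells. *Flt1* was found in 73.0% and 76.3% of the cells of the WT libraries and in 63.0% and 63.5% of those of the null libraries, without overlap, whereas its CPM overlapped between genotypes. The shares of *Kdr* in single libraries did not overlap either, nor did those of *Plxnd1*, with 68.4% and 60.9% in WT and 58.3% and 53.3% in null. *Vegfa* had 4.61% and 7.05% in WT and higher shares of 12.0% and 9.64% in null, at a log2 fold change of -0.14. Intervals cover counting error only, and cells of a library are not replicates.

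Levels were also compared between endothelium-like cells with and without a UMI of *Etv2*, itself called higher in null in this class. Endothelium-like cells with an *Etv2* UMI numbered 104 and 104 in WT and 127 and 157 in null, and those without numbered 48 and 52 in WT and 65 and 40 in null. *Kdr* was at 481 and 469.6 CPM in WT and 566 and 600.4 CPM in null in cells with *Etv2*, and at 288 and 322 CPM in WT and 349 and 378 CPM in null in cells without. *Nrp2* leaned the same way, with 86.5 and 96.7 CPM in WT and 92.2 and 96.4 CPM in null against 35.6 and 29.3 CPM in WT and 30.6 and 30.8 CPM in null. In both genes all 4 libraries were higher in the cells with *Etv2*, and *Kdr* was higher in null than in WT on either side of the split, without overlap. *Flt4* was also higher with *Etv2* in all 4 libraries, at 84.6 and 95.8 CPM in WT against 75.9 and 58.5 CPM without. *Flt1*, *Tie1*, *Tek*, *Nrp1* and *Plxnd1* leaned the other way in all 4 libraries, and *Vegfa* had no order shared by the 4. *Tek* was at 62.4 and 81.1 CPM in WT cells with *Etv2* and 94.4 and 85.2 CPM in those without. *Flt1* was at 187 and 226 CPM in WT cells with *Etv2* and 396 and 366 CPM in those without, *Tie1* at 40.3 and 45.1 CPM against 116 and 101 CPM, and *Plxnd1* at 141 and 149.5 CPM against 264 and 251 CPM. *Cdh5*, the cadherin of endothelial junctions, had the order of *Flt1*, with 223 and 252 CPM against 663 and 572 CPM in WT. The cells with *Etv2* were deeper (median 42136 UMIs) than those without (26857 UMIs), and the part of depth in this split was not tested.

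The first comparison asked whether the 9 genes differed between *Grhl3*-null and WT in endothelium-like cells, and only *Kdr* was called at an adjusted p below 0.05. *Kdr* was at 438 and 429 CPM in WT and 504 and 566 CPM in null, both null libraries above both WT libraries. Its log2 fold change was 0.29 ± 0.06 (SE, 2 libraries per genotype, adjusted p = 0.0458, edgeR quasi-likelihood fit, adjusted by Benjamini-Hochberg across all genes tested). It was thus 1 of 9 genes called, beside 0.601% of all 11477 genes tested in this class. The call was lost without null replicate 2 (0.21, adjusted p = 0.0798, edgeR), with putative doublets removed (0.21, adjusted p = 0.232, edgeR), with no filter on low counts (0.31, adjusted p = 0.196, edgeR) and with both other clusterings (0.25 and 0.26, adjusted p = 0.136 and 0.0982, edgeR). Within female cells *Kdr* rose (0.40 ± 0.08, adjusted p = 0.0241, edgeR, 1 of 9 genes, beside 2.24% of all genes), and within male cells it was not called (-0.00 ± 0.08, adjusted p = 0.999, edgeR, 0 of 9 genes, beside 0.183% of all genes). Male cells had 562 and 499.7 CPM in WT and 548 and 519.7 CPM in null, which overlapped, and female cells 425 and 447 CPM in WT and 520.5 and 639 CPM in null, which did not. Both WT male values lay above both WT female values. The difference between the sexes was 0.39 (adjusted p = 0.0732, edgeR) and did not pass the test.

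**Figure D2:**
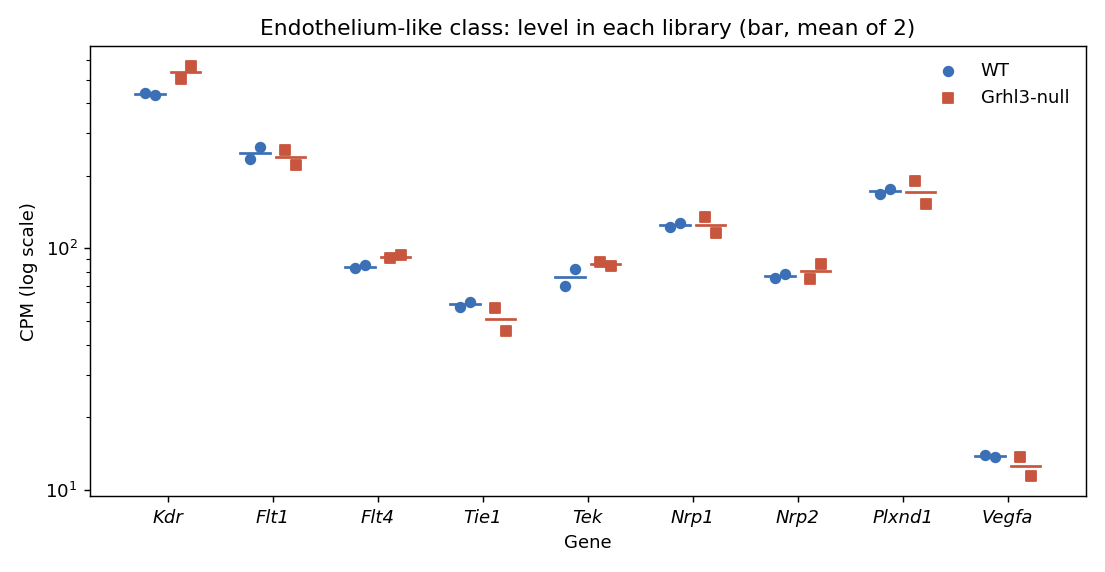
CPM of each gene in the endothelium-like class, with 1 point per library (circles WT, squares *Grhl3*-null) and a bar at the mean of the 2 libraries, on a log scale. The null points of *Kdr* lie above those of WT, and those of *Flt4* and *Tek* do so without a call, while the points of *Flt1*, *Nrp1* and *Plxnd1* overlap.

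The other genes did not pass the test in the endothelium-like class. *Flt1* was at 234 and 264 CPM in WT and 257 and 222 CPM in null, which overlapped, with a log2 fold change of -0.07 ± 0.08. *Flt4* was at 82.6 and 85.7 CPM in WT and 91.3 and 93.6 CPM in null (0.12 ± 0.07), and *Tek* at 69.6 and 82.3 CPM in WT and 87.9 and 84.9 CPM in null (0.17 ± 0.08). In both genes the null libraries lay above the WT libraries, with adjusted p-values of 0.508 and 0.428 (edgeR). *Tie1* was at 57.3 and 60.2 CPM in WT and 56.5 and 45.7 CPM in null (-0.22 ± 0.10, adjusted p = 0.41, edgeR), with both null libraries lower. *Nrp1*, *Nrp2* and *Plxnd1* had log2 fold changes of -0.01 ± 0.08, 0.06 ± 0.08 and -0.03 ± 0.09, and *Vegfa* had -0.14 ± 0.15. For *Plxnd1* the sexes had opposite signs, 0.41 ± 0.13 in male and -0.31 ± 0.11 in female cells, and neither was called, whereas their difference was (-0.72, adjusted p = 0.00361, edgeR, female minus male). *Flt4* likewise had 0.41 ± 0.11 in male and -0.16 ± 0.09 in female cells, with a difference of -0.56 (adjusted p = 0.0368, edgeR). The difference between the sexes was not called for the others, which had 0.05 in male and -0.10 in female cells (*Flt1*), 0.06 and -0.39 (*Tie1*), 0.36 and -0.07 (*Tek*), 0.17 and -0.08 (*Nrp1*), -0.21 and 0.12 (*Nrp2*), and -0.63 and 0.27 (*Vegfa*). The median over the 9 genes was -0.01, beside a median of -0.00 over all genes tested.

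Genes that act around these receptors were followed as lists in the same class. With male and female cells together, none of the tested VEGF and angiopoietin ligands (5 of 7 genes tested), class 3 semaphorins (5 of 7), plexins (7 of 8), endothelial surface genes (18 of 18) or receptor signalling genes (20 of 20) was called in either direction, with list medians between -0.18 and 0.10. Of 21 endothelial transcription factors, 2 rose, with a list median of 0.03. *Etv2* went from 251 and 217 CPM in WT to 341 and 316 CPM in null (log2 fold change 0.48 ± 0.07, adjusted p = 0.00843, edgeR), and *Hhex*, a homeobox factor of early blood and endothelial progenitors, from 166 and 178 CPM in WT to 208 and 225 CPM in null (0.32 ± 0.06, adjusted p = 0.0445, edgeR). Of 17 tested genes of hypoxia and *Vegfa* control (median 0.08), 1 rose, *Bnip3*, a mitochondrial hypoxia-response gene, from 37.5 and 35.6 CPM in WT to 51.4 and 54.3 CPM in null (0.52 ± 0.08, adjusted p = 0.0154, edgeR). In male cells alone *Etv2*, *Hhex* and *Bnip3* had -0.24, -0.26 and -0.20 and none was called, while in female cells they had 0.96, 0.60 and 1.16 and all were called. In female cells 11 of the 88 listed genes tested were called in all, 4 higher and 7 lower (2.24% of all genes). The other higher gene was *Tal1* (0.53), a factor of blood and endothelial progenitors. The 7 lower genes were 5 of 18 endothelial surface genes, *Cd34* (-0.67), *Apln* (-1.24), *Emcn* (-0.70), *Cldn5* (-0.56) and *Ecscr* (-0.42), with *Dll4* (-0.81), a Notch ligand of arterial and sprouting endothelium, and the factor *Mef2c* (-0.69). In male cells none of 85 was called (0.183% of all genes), in a fit with as few as 45 cells in a library. The difference between the sexes is not given for the listed genes. With all cells the *Hhex* call was lost without WT replicate 1 (0.27) or null replicate 2 (0.26). It was also lost with no filter on low counts (0.33), with putative doublets removed (0.26) and with both other clusterings (0.22 and 0.29). The *Etv2* call was lost with no filter (0.49, adjusted p = 0.0899, edgeR). That of *Bnip3* was lost with no filter (0.54, adjusted p = 0.0979, edgeR) and with DESeq2 (0.52, adjusted p = 0.0776, DESeq2). Of the check lists, 1 of 9 tested dissociation-induced genes fell (*Ier2*, by 0.35 on the log2 scale), no haemoglobin (5 tested) and none of the 10 textbook endothelial genes was called, and 1 of 4 tested visceral endoderm genes rose (*Ttr*, at 0.148 and 0 CPM in WT and 5.36 and 2.52 CPM in null). The summed dissociation-induced level was 520.5 and 482 CPM in WT and 445 and 439 CPM in null, and its part in the *Kdr* result was not tested.

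The second comparison summed all filtered cells of a library, as a bulk sample of the same tissue would. Here 7 of the 9 genes rose in null and none fell. Of all 17168 genes tested, 35.5% were called in either direction, 2928 higher and 3169 lower. In such sums more cells of a class and more RNA per cell cannot be told apart. *Kdr* was at 24.9 and 26.8 CPM in WT and 40.6 and 45.7 CPM in null (log2 fold change 0.71 ± 0.05, adjusted p = 9.18e-05, edgeR), *Nrp1* at 28.4 and 28.3 CPM in WT and 39.2 and 41.4 CPM in null (0.48 ± 0.03), and *Nrp2* at 37.6 and 38.2 CPM in WT and 48.9 and 50.3 CPM in null (0.36 ± 0.02). *Flt4*, *Tek*, *Plxnd1* and *Vegfa* rose by 0.41, 0.49, 0.20 and 0.33 on the log2 scale, whereas *Flt1* (0.21, adjusted p = 0.0655, edgeR) and *Tie1* (0.08, adjusted p = 0.563, edgeR) did not pass. The *Plxnd1* call was lost without WT replicate 1 (0.17, adjusted p = 0.1, edgeR) or null replicate 1 (0.11, adjusted p = 0.105, edgeR). The sexes split for *Kdr*, which fell in male cells (-0.24, adjusted p = 0.00116, edgeR) and rose in female cells (1.59, adjusted p = 2.71e-05, edgeR). In female cells all 9 genes rose (38.3% of all genes were called in either direction). In male cells *Nrp1* and *Nrp2* rose and *Kdr* fell (3 of 9, with 26.8% of all genes called). *Nrp1* (0.52 in male and 0.56 in female cells) and *Nrp2* (0.41 and 0.20) were thus called the same way in both sexes.

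The third comparison tested whether the genotype difference in endothelium-like cells differed from that in all other cells. Of 9 genes 3 were called, beside 2.16% of all 16831 genes tested. The difference of the log2 fold changes, endothelium-like minus other cells, was -0.52 ± 0.05 for *Kdr* (adjusted p = 1.80e-12, edgeR), -0.52 ± 0.08 for *Nrp1* (adjusted p = 2.84e-05, edgeR) and -0.31 ± 0.08 for *Nrp2* (adjusted p = 0.0337, edgeR). Outside the endothelium-like class *Kdr* was at 12.2 and 13.0 CPM in WT and 22.2 and 23.1 CPM in null, *Nrp1* at 25.6 and 24.9 CPM in WT and 35.4 and 38.2 CPM in null and *Nrp2* at 36.5 and 36.9 CPM in WT and 47.8 and 48.7 CPM in null, with the null libraries higher in each. Summed in this way, these 3 genes rose more outside the endothelium-like class. The other cells differed in make-up between genotypes. Mesenchyme 1 held 1347 WT and 1751 null cells, and the pre-somitic mesoderm-like class 1006 and 7. More cells of a class and more RNA per cell cannot be told apart in such sums. Without WT replicate 2 only *Kdr* was called (adjusted p = 1.06e-04, edgeR), with *Nrp1* at -0.47. The *Nrp2* call was lost there (-0.28), without WT replicate 1 (-0.34), without null replicate 1 (-0.23) and with DESeq2 (-0.33). In male cells alone the *Kdr* value turned to 0.35 (adjusted p = 0.0046, edgeR).

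The fourth comparison took the other classes 1 by 1. Of the 72 tests of a gene in 1 of 11 classes, 30 were called, 27 higher and 3 lower in null, beside 14.7% of all tests over all genes in these classes. With DESeq2, which gave 57 of the 72 an adjusted p, 16 were called, beside 5.31% of all tests. Of the 30 calls, 13 were made the same way with every other setting for all cells of a class and with any 1 library left out. They were *Kdr* and *Vegfa* in the neuromesodermal progenitor-like and somitic mesoderm-like classes, *Kdr* and *Nrp2* in the notochord-like class, *Nrp1* and *Nrp2* in the paraxial mesoderm-like class, *Nrp2* and *Vegfa* in the surface ectoderm-like class, *Tek* and *Nrp1* in Mesenchyme 2, and *Nrp1* in the neuroepithelium-like class. How many calls over all genes held in this way was not counted. The genes called were 4 of 8 in the gut-like class (19.7% of all genes), 4 of 8 in Mesenchyme 1 (12.0%), 4 of 7 in Mesenchyme 2 (20.9%), 4 of 7 in neuromesodermal progenitor-like cells (18.6%) and 4 of 7 in the surface ectoderm-like class (14.8%). They were 3 of 7 in the paraxial mesoderm-like class (22.0%), 3 of 7 in the somitic mesoderm-like class (13.9%), 3 of 5 in the notochord-like class (4.98%) and 1 of 7 in the neuroepithelium-like class (21.4%). None was called in the intermediate mesoderm-like class (0 of 5, with 3.57% of all genes) or the erythroid-like class (0 of 4, with 0.443%). *Tie1* was too low to be tested in any of these classes, and *Plxnd1* was tested in 11 and called in none.

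**Figure D3:**
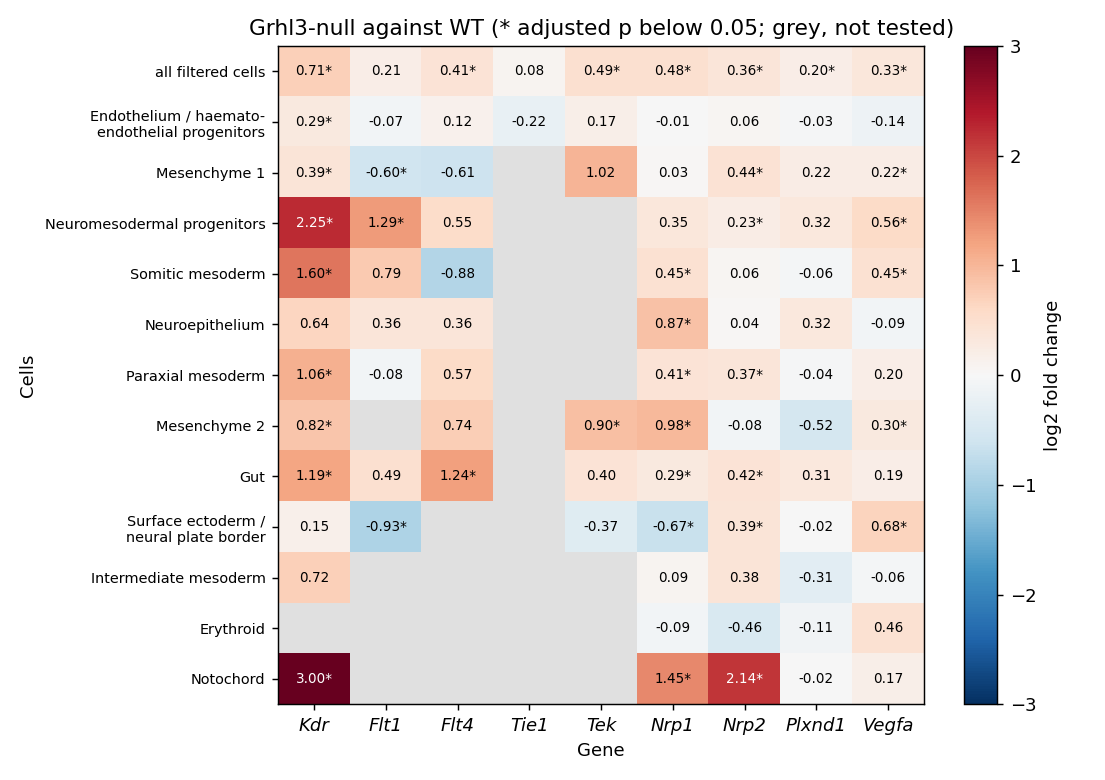
Log2 fold change of each gene (columns), *Grhl3*-null against WT, in all filtered cells and in each class (rows). Asterisks mark an adjusted p below 0.05 and grey fields were not tested. *Kdr* has its largest values in the notochord-like (3.00) and neuromesodermal progenitor-like (2.25) rows, and 1 field of the endothelium-like row has an asterisk.

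Among the receptors, *Kdr* rose in 7 of 10 classes. In Mesenchyme 1, where it was most abundant outside endothelium-like cells, it went from 65.4 and 75.6 CPM in WT to 86.7 and 97.7 CPM in null (0.39 ± 0.06, adjusted p = 1.53e-04, edgeR), and in Mesenchyme 2 from 13.7 and 16.4 CPM in WT to 22.4 and 30.6 CPM in null (0.82 ± 0.12, adjusted p = 8.09e-05, edgeR). The Mesenchyme 1 call was lost with DESeq2. With clusters made without the 9 genes and listed genes, the Mesenchyme 2 call was lost (0.36). The name Mesenchyme 1 then went to the *Tbx4*-led cluster of 428 cells, where *Kdr* was not called (0.35). The cluster that took most Mesenchyme 1 cells was unnamed and was not tested. The rise in the gut-like class (1.19 ± 0.27) was lost without null replicate 1 (0.91, adjusted p = 0.054, edgeR) and with putative doublets removed (0.19, adjusted p = 0.717, edgeR). The larger fold changes were in classes with little *Kdr*. Neuromesodermal progenitor-like cells went from 1.20 and 1.00 CPM in WT to 6.96 and 3.41 CPM in null (2.25 ± 0.32), and notochord-like cells from 2.53 and 0.918 CPM in WT to 16.7 and 10.1 CPM in null (3.00 ± 0.48), on 9 and 56 UMIs. These UMIs lay in few cells. No WT neuromesodermal progenitor-like cell (822 and 776 cells) had 5 or more *Kdr* UMIs, while 8 of 715 and 6 of 665 null cells did and held 72.5% and 58.4% of the *Kdr* UMIs of the class. In the notochord-like class 2 of 44 and 3 of 55 null cells held 75.8% and 87.0% of them. By sex, *Kdr* was called in female but not male cells in Mesenchyme 1 (0.68 and 0.14) and in neuromesodermal progenitor-like cells (1.94 and 0.77). In the paraxial mesoderm-like class it was called in male but not female cells (2.33 and 1.15). It was called in neither sex in the gut-like class, and the notochord-like class was not tested by sex.

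*Kdr* UMIs in other classes were set beside those of *Cdh5*, a defining endothelial gene. The ratio of *Kdr* to *Cdh5* UMIs was 1.36 and 1.27 in WT and 1.49 and 2.08 in null in the endothelium-like class. In Mesenchyme 1 it was between 102 and 378 in the 4 libraries, and in Mesenchyme 2 between 28.8 and 89. In neuromesodermal progenitor-like cells it was 3.21 and 1.80 in WT, nearer to the endothelium-like class, and 14.5 and 9.18 in null. Outside the endothelium-like class these ratios rested on few *Cdh5* UMIs. WT libraries had 7 and 6 in Mesenchyme 1, 7 and 5 in Mesenchyme 2 and 14 and 20 in neuromesodermal progenitor-like cells. Null libraries had 25 and 34, 10 and 5, and 17 and 11 in the same order. With putative doublets removed, the *Kdr* log2 fold change was 1.93 in neuromesodermal progenitor-like cells (adjusted p = 0.00901, edgeR) and 2.66 in the notochord-like class (adjusted p = 0.0364, edgeR).

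The remaining receptors changed in few classes. *Flt1* rose in neuromesodermal progenitor-like cells, from 0.428 and 0.251 CPM in WT to 0.761 and 0.946 CPM in null (1.29 ± 0.34) on 25 and 55 UMIs, and fell in the surface ectoderm-like class, from 7.35 and 6.22 CPM to 3.68 and 3.64 CPM (-0.93 ± 0.19, adjusted p = 0.00161, edgeR), and in Mesenchyme 1, from 3.27 and 3.94 CPM to 2.37 and 2.35 CPM (-0.60 ± 0.15). The neuromesodermal progenitor-like call was lost without WT replicate 2 (0.96, adjusted p = 0.191, edgeR), without null replicate 2 (1.15, adjusted p = 0.0586, edgeR), with putative doublets removed (1.08, adjusted p = 0.0879, edgeR) and with both other clusterings (0.74 and 0.25 on the log2 scale). That in Mesenchyme 1 was lost without WT replicate 2 (-0.47, adjusted p = 0.153, edgeR) and with DESeq2, and that in the surface ectoderm-like class with DESeq2. *Tek* rose in Mesenchyme 2, from 3.88 and 3.44 CPM in WT to 7.32 and 6.39 CPM in null (0.90 ± 0.18). *Flt4* rose in the gut-like class, on 14 UMIs in WT and 44 in null (1.24 ± 0.41, adjusted p = 0.0398, edgeR), and this call was lost with any 1 library left out (0.96 to 1.63).

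The neuropilins changed in more classes and at higher levels. *Nrp1* rose in 6 of 11 classes and fell in 1. The rise was largest in the notochord-like class (1.45 ± 0.29), and in Mesenchyme 2 *Nrp1* went from 53.9 and 52.8 CPM in WT to 99.0 and 111 CPM in null (0.98 ± 0.06, adjusted p = 4.73e-10, edgeR). In the neuroepithelium-like class it went from 8.32 and 6.66 CPM in WT to 14.0 and 14.0 CPM in null (0.87 ± 0.11), and in the surface ectoderm-like class it fell from 13.2 and 11.7 CPM to 6.51 and 9.77 CPM (-0.67 ± 0.16). The surface ectoderm-like call was lost without WT replicate 1 (-0.58) or null replicate 1 (-0.39), and the notochord-like call without null replicate 1 (1.17) and with putative doublets removed (0.99). *Nrp2* rose in 6 of 11 classes and fell in none. It went from 4.64 and 7.95 CPM in WT to 21.3 and 35.9 CPM in null in the notochord-like class (2.14 ± 0.29), from 27.8 and 27.6 CPM to 38.6 and 36.4 CPM in Mesenchyme 1 (0.44 ± 0.05) and from 57.2 and 53.9 CPM to 73.6 and 72.3 CPM in the paraxial mesoderm-like class (0.37 ± 0.04). Its log2 fold changes in the gut-like, surface ectoderm-like and neuromesodermal progenitor-like classes were 0.42, 0.39 and 0.23.

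With clusters made without the 9 genes and listed genes, *Nrp2* was not called in Mesenchyme 1 (0.18). That name then went to the *Tbx4*-led cluster of 428 cells. Most Mesenchyme 1 cells (2634) lay in an unnamed cluster that was not tested. The *Nrp2* call in the gut-like class was lost without null replicate 2 (0.30).

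The ligand *Vegfa* rose in 5 of 11 classes. The largest increase was in the surface ectoderm-like class, from 10.5 and 9.85 CPM in WT to 17.6 and 15.8 CPM in null (0.68 ± 0.12, adjusted p = 3.82e-04, edgeR). Neuromesodermal progenitor-like cells went from 8.43 and 6.96 CPM in WT to 11.3 and 11.7 CPM in null (0.56 ± 0.09), and somitic mesoderm-like cells from 10.9 and 9.71 CPM in WT to 14.3 and 13.9 CPM in null (0.45 ± 0.08). In Mesenchyme 2 and Mesenchyme 1 it rose by 0.30 and 0.22 on the log2 scale, the latter not without WT replicate 1 (0.19) or null replicate 1 (0.11). In the gut-like class, where its level was highest, *Vegfa* was at 49.1 and 42.1 CPM in WT and 57.5 and 49.5 CPM in null and was not called (0.19, adjusted p = 0.0773, edgeR).

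The neuromesodermal progenitor-like class held cells of unequal kind in the genotypes. Clusters made without the 9 genes and listed genes placed 495 of its WT cells and 1 of its null cells in a cluster of their own, led by *Pou5f1*, *Cdx1* and *Wnt8a*. In these WT cells *Vegfa* was at 5.79 and 4.09 CPM and *Nrp2* at 24.1 and 25.0 CPM. In the other cells of the class, 1103 in WT and 1379 in null, *Nrp2* was at 40.1 and 41.1 CPM in WT and 41.6 and 42.1 CPM in null, *Vegfa* at 9.67 and 8.36 CPM in WT and 11.3 and 11.7 CPM in null and *Kdr* at 1.34 and 0.910 CPM in WT and 6.96 and 3.41 CPM in null. The null libraries lay above the WT libraries in all 3 genes there, by little for *Nrp2*, and these differences were not tested.

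When the classes were split by sex, most of these differences were not called in both sexes. Of the 30 calls, 3 were called the same way in male and in female cells, 8 had the same direction in both but were called in at most 1 sex, 9 had the opposite direction in 1 sex without a call there, 5 were called the opposite way in 1 sex, and 5 could not be tested in both sexes. The same tally was not made over all genes called in these classes, so it is not known whether the 9 genes stand apart. Within male cells 16 of 47 tests in the other classes were called (10.4% over all genes) and within female cells 27 of 53 (16.7% over all genes). The 3 called in both were *Vegfa* in the surface ectoderm-like class (0.81 ± 0.20 in male cells, adjusted p = 0.0102, and 0.62 ± 0.16 in female cells, adjusted p = 0.0158, edgeR), *Vegfa* in neuromesodermal progenitor-like cells (0.74 and 0.46) and *Nrp2* in Mesenchyme 1 (0.54 and 0.37). In the surface ectoderm-like class, male cells had 10.1 and 9.93 CPM in WT and 17.9 and 16.9 CPM in null of *Vegfa*, and female cells 10.1 and 9.89 CPM in WT and 17.4 and 14.7 CPM in null. The genotypes did not overlap in either sex.

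**Figure D4:**
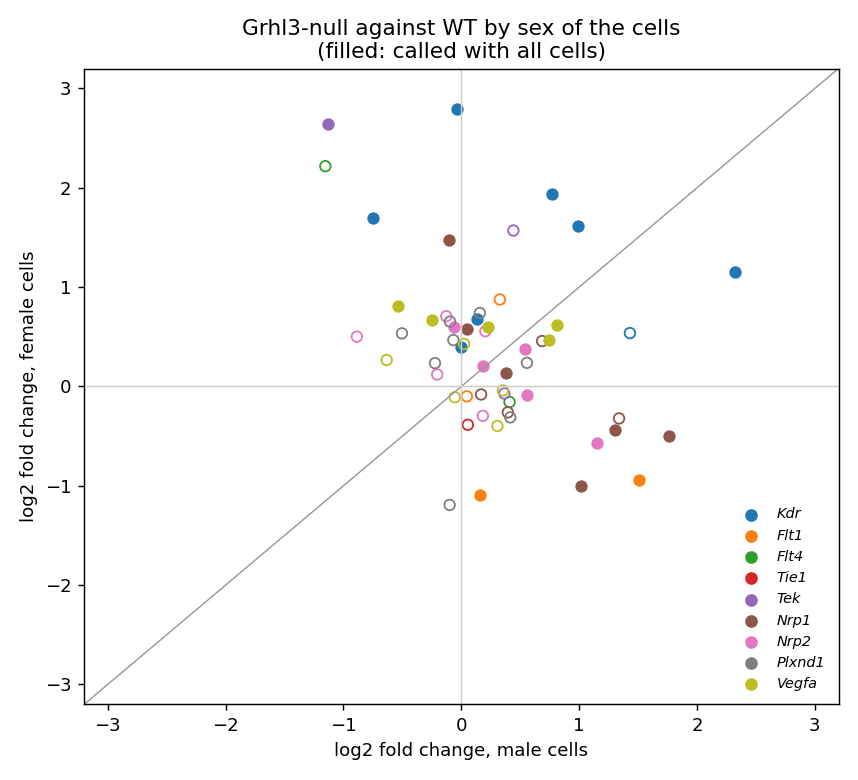
Log2 fold change, *Grhl3*-null against WT, in male cells (x axis) and in female cells (y axis), with 1 point for each gene in each class tested in both sexes. Filled points were called with all cells of the class. Many filled points lie far from equal values, such as *Kdr* in Mesenchyme 2 at -0.75 and 1.69 and *Nrp1* in the paraxial mesoderm-like class at 1.76 and -0.50.

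In Mesenchyme 2 the sexes differed in several genes. *Kdr* fell in male cells, from 43.5 and 45.0 CPM in WT to 21.1 and 31.4 CPM in null (-0.75 ± 0.15, adjusted p = 0.00107, edgeR), and rose in female cells, from 6.77 and 8.63 CPM in WT to 20.8 and 27.7 CPM in null (1.69 ± 0.17, adjusted p = 2.26e-07, edgeR). The null levels of the sexes overlapped, and the WT levels did not. *Nrp1* was at 121 and 97.4 CPM in WT and 92.8 and 111 CPM in null in male cells, which overlapped, and at 39.5 and 40.5 CPM in WT and 106 and 112 CPM in null in female cells, which did not. *Tek* fell in male cells, from 13.2 and 12.0 CPM in WT to 5.07 and 6.42 CPM in null (-1.13), and rose in female cells, from 1.30 and 1.51 CPM in WT to 11.7 and 6.28 CPM in null (2.64). WT male cells of this class numbered 57 and 65, WT female cells 341 and 344, null male cells 245 and 260, and null female cells 87 and 99. In the paraxial mesoderm-like class *Nrp1* rose in male cells, from 10.9 and 11.1 CPM in WT to 38.1 and 37.4 CPM in null (1.76 ± 0.14), and fell in female cells, from 22.2 and 24.7 CPM in WT to 17.8 and 14.8 CPM in null (-0.50 ± 0.15).

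**Figure D5:**
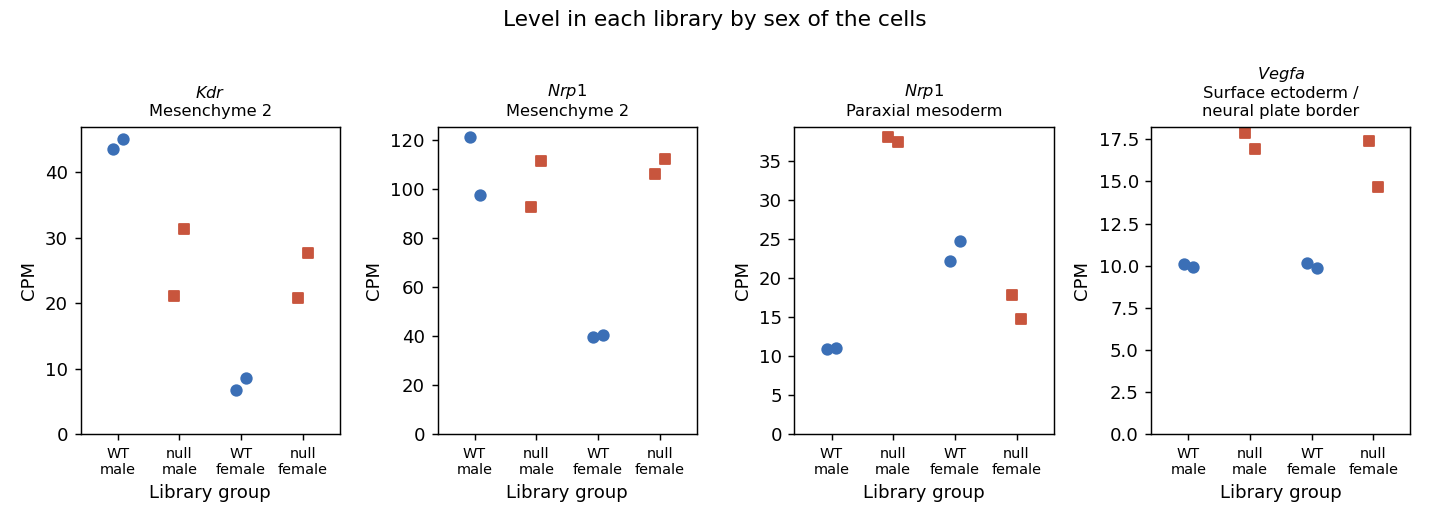
CPM in each library for male and female cells, in 4 panels with their own axes (circles WT, squares *Grhl3*-null). In Mesenchyme 2 the WT male points of *Kdr* and *Nrp1* lie above the WT female points, in the paraxial mesoderm-like class the order of the genotypes for *Nrp1* turns between the sexes, and *Vegfa* in the surface ectoderm-like class is higher in null in both sexes.

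Whether the genotype difference itself differed between female and male cells was tested in 1 model per class, chosen after seeing the data. Of 62 tests in 10 classes 25 were called, beside 14.5% of all tests over all genes in these classes. In Mesenchyme 2, *Kdr* (2.43), *Tek* (3.77), *Nrp1* (1.57), *Nrp2* (1.40) and *Vegfa* (1.34) had a more positive log2 fold change in female than in male cells. *Nrp1* differed the other way in the paraxial mesoderm-like (-2.27), neuroepithelium-like (-1.71) and intermediate mesoderm-like (-1.71) classes. *Vegfa* in the surface ectoderm-like class was not called (-0.19, adjusted p = 0.72, edgeR). Sex and embryo cannot be told apart in these pools.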

How the data were processed

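The deposited files held raw UMI counts per gene and cell barcode, made by the authors with Cell Ranger on mm10. Barcodes entered the analysis when they held no fewer than 3000 detected genes and 7500 UMIs, of which mitochondrial UMIs made up 7% or less (20198 cells in all, with 209833527 to 226723903 UMIs per library). Libraries shared 5 to 7 barcodes per pair. Cells were clustered with Seurat 5.3.0 (SCTransform, 3000 variable features, 30 components, resolution 0.4) and clusters were named from fixed marker lists. Doublets were kept in the main analysis, since the automatic caller marked at most 0.0627% of a library, and as an alternative the 5% of cells with the highest Scrublet scores were removed. Cells were called male with at least 2 Y-linked and at most 2 *Xist* UMIs, and female with at least 3 *Xist* and at most 1 Y-linked UMI.

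Counts were summed per library and class (at least 20 cells in every library) and tested with edgeR 4.0.16 (filterByExpr, TMM, quasi-likelihood, no covariate) under Benjamini-Hochberg adjustment over all genes tested. DESeq2 1.42.0, RLE scaling, a replicate block, other filters and clusterings and each sex were alternatives. On simulated counts with 200 genes changed by 1 on the log2 scale, 196 were recovered in the endothelium-like class beside 12 wrong calls, and smaller changes were not simulated. The simulation gave every gene the same small spread and changed only genes with many UMIs. It therefore does not cover genes with few UMIs. Library totals limit precision mainly for low counts, but the 2 libraries of a pool differed by more than counting error. The chi-square per degree of freedom over genes was 8.20 between the WT libraries and 14.4 between the null libraries. The 9 genes, all named throughout, and the gene lists were chosen with earlier results of these data known. Among the genes most like *Vegfa*, 1 is not reported here.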

Additional observations from a re-analysis of the deposited data

Results flagged for a closer look

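The genotype difference in endothelium-like cells differed from that in the other cells, by a test of the difference itself, for *Kdr* (-0.52 on the log2 scale), *Nrp1* (-0.52) and *Nrp2* (-0.31). The other cells were summed per library, and their classes differed in number between genotypes.

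The genotype difference also differed between female and male cells, by a test of that difference, for 25 of 62 genes and classes. Values are the log2 fold change in female cells minus that in male cells. In Mesenchyme 2 it was more positive in female cells for *Tek* (3.77), *Flt4* (3.38), *Kdr* (2.43), *Nrp1* (1.57), *Nrp2* (1.40) and *Vegfa* (1.34). It was also more positive in female cells for *Kdr* in the somitic mesoderm-like class (2.74), for *Vegfa* (0.91) and *Kdr* (0.54) in Mesenchyme 1, for *Nrp2* in the neuroepithelium-like class (0.84) and for *Nrp2* in the surface ectoderm-like class (0.64). In the surface ectoderm-like class it was more negative in female cells for *Kdr* (-3.62), *Tek* (-3.50), *Flt1* (-2.47) and *Nrp1* (-2.09). For *Nrp1* it was more negative in the paraxial mesoderm-like (-2.27), neuroepithelium-like (-1.71) and intermediate mesoderm-like (-1.71) classes and in Mesenchyme 1 (-0.65). The remaining more negative values were those of *Nrp2* (-1.73) and *Vegfa* (-0.40) in the gut-like class, *Flt1* in Mesenchyme 1 (-1.26), *Nrp2* in the paraxial mesoderm-like class (-0.66), and *Plxnd1* (-0.72) and *Flt4* (-0.56) in the endothelium-like class. Male and female cells of a pool come from different embryos, so that sex and embryo cannot be told apart.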

How the results depend on the processing

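In the endothelium-like class 1 of the 9 genes was called, and 0 with no filter on low counts, with doublets removed, with clusters made without the 9 genes and listed genes, with log-normalised clusters and in male cells, and 0 to 1 with 1 library left out. Over all cells 7 were called, 3 in male cells and 6 to 8 with 1 library left out. In the other classes 30 were called, 16 with DESeq2, 16 in male cells and 28 to 30 with 1 library left out. Of the differences between endothelium-like and other cells 3 were called, and 1 to 3 with 1 library left out. In the pathway lists 3 genes were called, 0 with no filter, 9 with the 5% mitochondrial limit, 0 in male cells, 11 in female cells and 4 to 14 with 1 library left out. Over all genes tested in the class, 0.601% were called in the main fit, 0.183% in male cells and 2.24% in female cells. With no filter 8 were higher and 8 lower of 17857 genes, and with the 5% mitochondrial limit 86 and 112 of 11167. The share of WT endothelium-like cells with *Kdr* was 98.4% as sequenced and 85.4% when thinned. The cause of these changes was not tested.

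Replicate numbers did not pair the samples (correlation of same-numbered deviations 0.0701 over all cells and -0.0409 in the endothelium-like class). With the replicate number as a block, 9 genes of the pathway lists were called, beside 87 higher and 109 lower of all 11477 genes tested.

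For values called in either setting, signs turned in male cells for *Kdr* in the endothelium-like class (-0.00026 ± 0.0825, SE, not distinguishable from 0), over all cells (-0.24), in Mesenchyme 2 (-0.75), in the somitic mesoderm-like class (-0.033 ± 0.38, likewise) and in its difference between endothelium-like and other cells (0.35). They turned in male cells also for *Tek* (-1.13), *Nrp1* (-0.11) and *Vegfa* (-0.53) in Mesenchyme 2, *Flt1* (0.16) and *Vegfa* (-0.25) in Mesenchyme 1, *Flt1* (1.51), *Nrp1* (1.01) and *Nrp2* (-0.066) in the surface ectoderm-like class, and *Etv2* (-0.24), *Hhex* (-0.26) and *Bnip3* (-0.20) in the endothelium-like class. In female cells they turned for *Nrp2* in the gut-like class (-0.57), Mesenchyme 2 (0.50) and the paraxial mesoderm-like class (-0.084), and for *Nrp1* in Mesenchyme 1 (-0.26), the neuroepithelium-like class (-0.44) and the paraxial mesoderm-like class (-0.50). With log-normalised clusters they turned for *Nrp2* in Mesenchyme 2 (0.24) and the neuroepithelium-like class (-0.23). Of the other values for single genes, 1093 kept their direction and their side of the threshold, 92 that were called in neither setting changed sign, 88 lost and 44 gained a call. Genes with few UMIs, such as *Tie1* outside the endothelium-like class, could not be compared at this depth.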
